A study of Mus musculus with 4 samples.

Results

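The Hedgehog genes described here are *Ptch1*, *Hhip*, *Gas1*, *Cdon*, *Boc*, *Smo*, *Gli1*, *Sufu* and *Kif7*, 9 of the 22096 gene symbols in the RNA-seq tables. They were chosen by name, as receptors, co-receptors, transducers and targets of the pathway, and all 9 were found and passed the filter on low values. RFP+ cells were sorted from the palatal shelves of 4 mouse embryos of mixed background at embryonic day 13.5, and each embryo gave 1 library. Both controls carried the Osr2RFP allele, and so did both mutants. Control 1 was an Osr2RFP/+ embryo, control 2 a *Foxf2*+/-Osr2RFP/+ littermate, and the 2 mutants were *Foxf2*-/-Osr2RFP/+. The controls thus differed from each other by a *Foxf2* null allele, and the spread of 2 embryos per group also holds that difference. Because RFP was made from the *Osr2* locus, the cells were selected by *Osr2* activity and come from the whole shelf, so that expression in an anterior or posterior domain was averaged with the rest. The *Foxf2* mutation was present in every tissue of the embryo, epithelium included.

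In the palate, Sonic hedgehog is made by the epithelium and acts on the mesenchyme beneath. *Ptch1* is the receptor that holds the transducer *Smo* inactive until a ligand binds. *Gas1*, *Cdon* and *Boc* help *Ptch1* to bind the ligand, and *Hhip* sequesters it at the surface. Active *Smo* releases the Gli transcription factors from *Sufu* and *Kif7*, which restrain or process them in the primary cilium. *Ptch1*, *Hhip* and *Gli1* are themselves induced by the pathway, and their transcript levels are therefore widely used as its readouts.

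Levels are given in FPKM, fragments scaled by transcript length and by library size, which can be compared between genes. Relative sequencing depth, read from the ratio of coverage to FPKM, ran from 1 to 1.19 over the 4 libraries, but the number of reads is unknown. *Foxf2* stood at 85.4 and 45.1 FPKM in controls 1 and 2 and at 1.41 and 2.28 in the 2 *Foxf2*-/- embryos, in the order of the labels. *Osr2*, the gene of the sort, was at 143 and 144 FPKM against 129 and 147. Of 10 palatal mesenchyme markers, all 10 were above 1 FPKM on average, and their sum lay between 744 and 910 FPKM. The sum of 10 epithelial markers lay between 8.72 and 11.3 FPKM, that of 5 endothelial markers was at most 1.5 and that of 5 muscle markers at most 0.341. Erythroid markers varied far more, summing to 172 and 1163 FPKM in controls 1 and 2 and to 944 and 2498 in the mutants. Of those 8 markers 7 passed the filter and 2 of them were past 1.5-fold over both controls. The 5 glia and melanoblast markers together reached 6.41 FPKM for mutant 1 and 2.65 for mutant 2, beside 2.15 for control 1 and 1.48 for control 2. Only 1 of these 5 passed the filter, and its mutant mean was past 1.5-fold over both controls. That marker stood at 4.58 FPKM for mutant 1 but 0.898 for mutant 2, beside 0.742 for control 1 and 0.224 for control 2. Its control mean of 0.483 was under 1 FPKM, so it passed the filter only through the mutants, mainly mutant 1. This marker therefore cannot show whether glial transcripts differed between the groups. Immune markers summed to 5.93 to 8.93 FPKM. With bulk samples, fewer cells of a type and less RNA per cell cannot be told apart.

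The 9 genes spanned a 23.7-fold range in the controls. *Ptch1* was highest at 107 ± 1.62 FPKM (SD, n = 2), followed by *Smo* at 55.7 ± 2.17, *Gas1* at 30.8 ± 1.06, *Gli1* at 22.3 ± 3.98 and *Sufu* at 13.0 ± 0.86. *Boc* at 7.86 ± 0.644, *Cdon* at 7.67 ± 0.312, *Kif7* at 5.53 ± 0.467 and *Hhip* at 4.53 ± 0.0262 were lower. Among neighbours in this order only *Boc* and *Cdon* had overlapping control embryos. In the *Foxf2*-/- embryos *Boc* and *Cdon* no longer overlapped, with *Boc* the higher, while *Hhip* at 5.25 ± 0.00567 FPKM lay within the range of *Kif7* at 5.11 ± 0.647. *Ptch1* exceeded *Gas1*, the most abundant co-receptor among the 9 genes, by at least 2.65 times in every embryo.

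**Figure D1:**
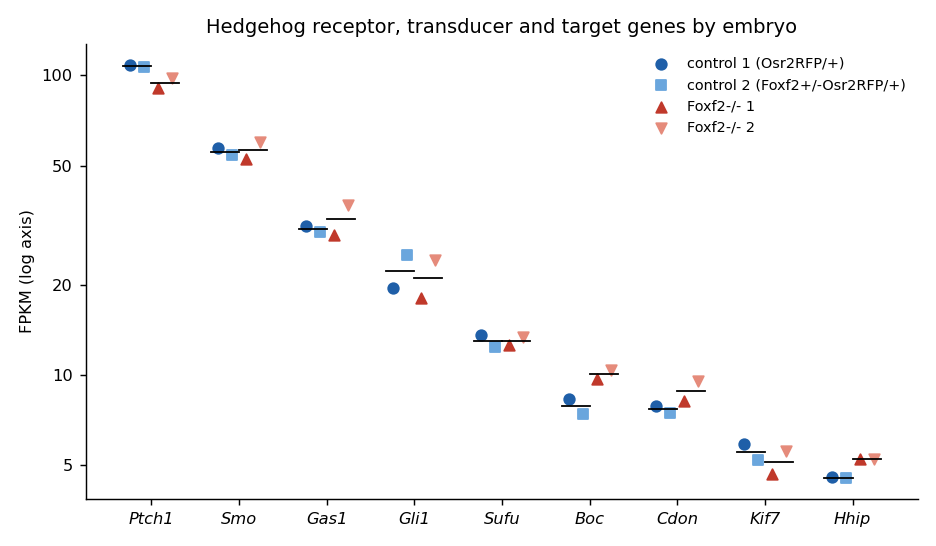
FPKM of the 9 Hedgehog genes (log axis) in each of the 4 embryos, ordered by the control mean, with black lines at the mean of each group. Both mutants lie above both controls for *Boc*, *Cdon* and *Hhip* and below both for *Ptch1*, whose means are 107 and 94.5 FPKM.

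All 9 genes stayed within 1.5-fold of the controls when the *Foxf2*-/- embryos were averaged. Fitted log2 fold changes of *Foxf2*-/- over control ran from -0.19 for *Ptch1* to 0.35 for *Boc*, and none of the 9 was called by limma (Benjamini-Hochberg adjusted p under 0.05 and over 1.5-fold). The same rule called 7 of 11154 genes tested, or 0.0628%. None of the 9 passed 1.5-fold against each control separately, where 156 genes or 1.4% did. The 95% interval of the change stayed within 1.5-fold either way for 8 of the 9 genes, *Boc* being the exception, as it did for 75.3% of all genes tested. A change larger than that bound is therefore outside the interval for *Ptch1*, *Hhip*, *Gas1*, *Cdon*, *Smo*, *Gli1*, *Sufu* and *Kif7*, whereas smaller changes could not be resolved with 2 embryos a group.

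The deposited scale was itself shifted between the groups. The median log2 fold change of all genes tested was -0.08, and both mutants lay below both controls for 35.8% of genes but above both for only 9.89%. Rescaling the embryos by median ratios raised every log2 fold change by about 0.08 and brought these shares to 21.6% and 20.9%. On the deposited scale 3 of the 9 Hedgehog genes had both mutants above both controls and 1 had both below. After rescaling the counts were 6 above and 1 below. The median change of the 9 genes was 0.02 as deposited and 0.10 after rescaling.

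**Figure D2:**
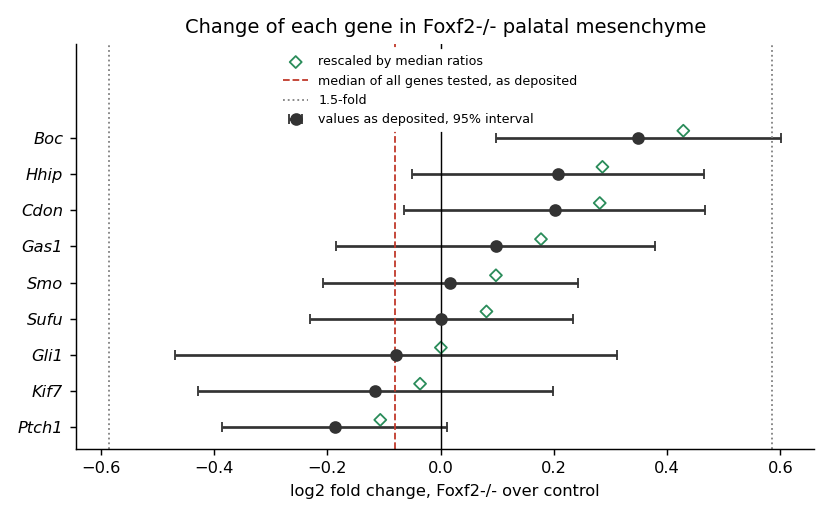
Log2 fold change of each Hedgehog gene, *Foxf2*-/- over control, with its 95% interval from limma (black) and the value after rescaling by median ratios (open diamonds). The dashed line marks the median of all genes tested, -0.08, and the dotted lines mark 1.5-fold; *Boc* has the only interval that reaches past 1.5-fold.

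*Ptch1* (chromosome 13, 63612841 to 63666828, mm9, minus strand, 1 RefSeq entry of 4305 bases) had levels of 109 and 106 FPKM in control embryos against 91.1 and 97.9 in mutant embryos. Both mutants were lower than both controls, a position shared by the 35.8% of genes given above. Its log2 fold change of -0.19 (SE 0.085, 95% interval -0.39 to 0.01) had a limma adjusted p of 0.413 over all genes. The exact two-sided permutation test gave p = 0.333, which is the smallest that 2 embryos against 2 can give. After rescaling the change was -0.11, and the embryos still did not overlap, at 104 and 105 against 96.2 and 97.9 FPKM. *Ptch1* lies 31.9 Mb from *Foxf2* on the same chromosome, and *Gas1*, also on that chromosome, lies 28.6 Mb from *Foxf2*.

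By in situ hybridization the study found *Ptch1* lower in an anterior and a posterior domain of the *Foxf2*-/- palate. Those domains were not separated in the sorted cells. The study also measured *Ptch1* by RT-PCR, with the following pair of primers, shown because they define which part of the transcript that assay reads.
Ptch1-F: tcaggcaatacgaagcacag
Ptch1-R: caagggaggctgatgtct
Matched to the mm9 genome with GENCODE vM1 exons, the forward primer lies in exon 22 of a 23-exon transcript (chromosome 13, 63614941 to 63614960) and the reverse primer in exon 23 (63613348 to 63613365). Both sites are in coding sequence, on separate exons, whereas the FPKM value is that of the whole RefSeq entry of 4305 bases. That entry lies at 63612841 to 63666828 and the GENCODE gene at 63610261 to 63674474, so the entry reaches neither end of the gene.

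*Gli1* (chromosome 10, minus strand), the transcription factor most often read as the output of the pathway, did not separate the groups. It reached 19.5 and 25.1 FPKM in controls 1 and 2 and 18.1 and 24.1 in mutants 1 and 2. The gap inside each group was thus wider than the gap between group means, and the log2 fold change of -0.08 (95% interval -0.47 to 0.31) had a limma adjusted p of 0.875. It became 0.00 after rescaling. Control 2 and mutant 2, the embryos with the higher *Gli1*, also had the higher erythroid sums within their groups, 1163 and 2498 FPKM, and the part of this in the result was not tested.

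*Hhip* (chromosome 8, minus strand), the third induced readout, measured 4.55 and 4.51 FPKM in control cells and 5.24 and 5.25 in mutant cells. The embryos of each group lay closer together than for any other of the 9 genes, and the groups did not overlap. Its log2 fold change was 0.21 (95% interval -0.05 to 0.47, limma adjusted p = 0.473) and 0.29 after rescaling. The fitted changes of the 3 readout genes differed in sign on the deposited scale, with *Ptch1* at -0.19, *Gli1* at -0.08 and *Hhip* at 0.21. The 95% interval of each included 0, so a difference in direction was not resolved.

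Of the 3 co-receptors, *Boc* and *Cdon* had both mutants above both controls. *Boc* (chromosome 16, minus strand) gave 8.32 and 7.41 FPKM in control embryos and 9.69 and 10.4 in mutant embryos. That is a log2 fold change of 0.35 (SE 0.108, 95% interval 0.10 to 0.60), or 27.4% higher. Mutant 2 was the highest embryo and control 2 the lowest. *Boc* had the lowest unadjusted limma p of the 9 genes, 0.0132, a level under 0.05 that 13.0% of all genes reached, and its adjusted p was 0.3.

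*Cdon* (chromosome 9, plus strand), the close relative of *Boc*, had levels of 7.89 and 7.44 FPKM in control embryos against 8.19 and 9.51 in mutant embryos. The groups did not overlap, although mutant 1 exceeded control 1 by less than the 2 mutants differed. The log2 fold change was 0.20 (95% interval -0.06 to 0.47, limma adjusted p = 0.495). It was 0.10 without mutant 2 and 0.31 without mutant 1. *Gas1* (chromosome 13, minus strand), a lipid-anchored co-receptor unrelated to the other two, measured 31.5 and 30.0 FPKM in control cells and 29.3 and 36.9 in mutant cells. These overlap, since mutant 1 was the lowest embryo and mutant 2 the highest, and the log2 fold change of 0.10 had a limma adjusted p of 0.768. After rescaling *Gas1* no longer overlapped, at 30.1 and 29.7 against 31.0 and 36.9 FPKM.

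Ratios between genes of the same embryo do not depend on the scale of the library. *Ptch1* exceeded *Boc* by 13.1 and 14.4 times in the controls and by 9.4 and 9.44 times in the mutants. The ratio of *Ptch1* to *Hhip* was likewise lower in the mutants, at 17.4 and 18.6 beside 23.9 and 23.6, and that of *Ptch1* to *Smo* was 1.9 and 1.96 against 1.73 and 1.63. By contrast the ratio of *Ptch1* to *Gli1* overlapped, at 5.58 and 4.24 against 5.03 and 4.05. Separation was not particular to *Ptch1*. Most of the 21 ratios examined did not overlap, those of *Smo* to *Boc*, *Smo* to *Cdon* and *Boc* to *Gas1* included. The ratios of *Gli1* to *Smo* and *Hhip* to *Cdon* did overlap. The ratios share genes and so are not independent, and ratios between other genes were not examined. Of 21 such ratios among 7 genes none can have an exact permutation p below 0.333, so these values are a description.

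*Smo* (chromosome 6, plus strand), the transducer, gave 57.2 and 54.1 FPKM in control embryos and 52.8 and 60.1 in mutant embryos. The mutants bracket the controls, and the log2 fold change was 0.02 (95% interval -0.21 to 0.24, limma adjusted p = 0.957). After rescaling the mutants, at 55.7 and 60.1, were above the controls, at 54.6 and 53.6, with a log2 fold change of 0.10. *Kif7* (chromosome 7, minus strand), the ciliary kinesin that scaffolds Gli proteins, had levels of 5.86 and 5.20 FPKM in control embryos against 4.65 and 5.57 in mutant embryos. Its groups overlapped on both scales, with a log2 fold change of -0.12 (95% interval -0.43 to 0.20, limma adjusted p = 0.752).

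*Sufu* (chromosome 19, 46471408 to 46561150, mm9, plus strand), the inhibitor that binds Gli proteins in the cytoplasm, was flat when its 2 RefSeq entries were summed. It measured 13.6 and 12.4 FPKM in control cells and 12.6 and 13.4 in mutant cells, a log2 fold change of 0.00 (95% interval -0.23 to 0.23, limma adjusted p = 0.999). The entries themselves differed between the groups in opposite directions. The 2359-base entry reached 9.34 and 5.15 FPKM in controls 1 and 2 and 1.71 and 1.55 in mutants 1 and 2. The 2356-base entry gave 4.25 and 7.23 FPKM in control embryos and 10.9 and 11.9 in mutant embryos. The longer entry thus held 68.7% and 41.6% of *Sufu* FPKM in controls 1 and 2 but 13.6% and 11.6% in the mutants, with control 2 between control 1 and the mutants.

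The entries differ in length by 3 bases. GENCODE vM1 has a pair of *Sufu* transcripts whose internal exons, 10 compared, differ only at the start of exon 7, also by 3 bases, where neighbouring acceptor sites follow each other (chromosome 19, 46527624 to 46527683, mm9, plus strand). In the genomic sequence shown here the capitals mark the upstream AAG and the downstream CAG after which exon 7 can begin, and the lines below it show the end of exon 6 joined to exon 7, with the 3 extra bases in capitals.
Acceptor region: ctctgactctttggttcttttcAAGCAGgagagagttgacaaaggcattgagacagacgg
Longer transcript: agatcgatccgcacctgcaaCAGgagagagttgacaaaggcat
Shorter transcript: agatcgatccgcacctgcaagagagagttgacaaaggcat
The coding sequences are 485 and 484 codons long. The match of RefSeq entries to these transcripts rests on the length difference alone, since the tables give no exons. If the match holds, only reads over this junction tell the entries apart. The mean coverage of *Sufu*, as the tables give it, was 17.5 to 20.8 in the 4 embryos, so each share would then rest on few reads.

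A shift of this kind is uncommon but not particular to *Sufu*. Of 1017 genes with 2 entries and a mean of at least 5 FPKM, 46 or 4.52% had a share that shifted by at least 20 percentage points without overlap. Among the 63 of them whose entries are within 3 bases of the same length it was 6, or 9.52%. The *Sufu* shift was -42.6 points, and 4 of the 1017 genes, *Sufu* included, shifted by as much or more without overlap. The median shift was 3.51 points. The controls of *Sufu* differed from each other by 27.1 points, and 5.8% of the genes had controls that far apart. Leaving out each embryo in turn gave shifts from -56.1 to -29.0 points. The exact permutation p of either entry was 0.333, the smallest possible here.

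Of the other Hedgehog pathway genes only 2 could be examined in this way, *Rab23* and *Gpc6*, and *Rab23* is singled out because of its value. *Gpc6*, a glypican, had a shift of -1.19 points, and its groups overlapped. *Rab23*, a small GTPase that restrains the pathway, had the largest shift of all 1017 genes. Its 4321-base entry had levels of 8.57 and 8.44 FPKM in control embryos against 1.41 and 2.14 in mutant embryos. Its 4209-base entry, which starts 523 bases further downstream (chromosome 1, 33777264, mm9) and shares the same end, measured 0.59 and 0.0173 FPKM in control cells and 6.99 and 6.6 in mutant cells. The longer entry therefore held 93.6% and 99.8% of *Rab23* FPKM in controls 1 and 2 but 16.8% and 24.5% in the mutants. The summed level was 9.16 and 8.46 FPKM in the controls against 8.4 and 8.74 in the mutants, with a log2 fold change of -0.04 and a limma adjusted p of 0.904. Only the positions and lengths of these entries are given, so the exons that separate them are not known here. Both controls of *Rab23* lay together, unlike those of *Sufu*. The mean coverage of *Rab23* was 11.7 to 13.6 in the 4 embryos, lower than that of *Sufu*. The exact permutation p of either *Rab23* entry was 0.333, the smallest possible here.

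**Figure D3:**
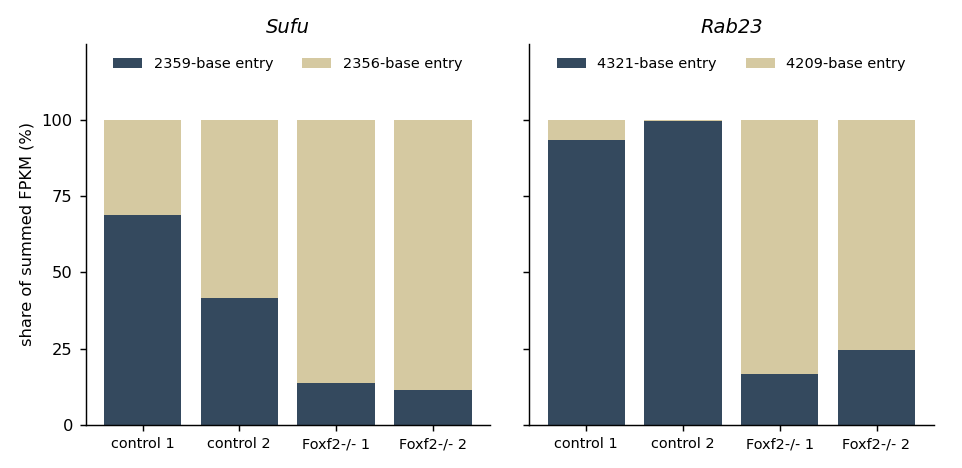
Share of the summed FPKM (%) assigned to each of 2 RefSeq entries of *Sufu* (left) and *Rab23* (right) in the 4 embryos, the longer entry in dark bars and the shorter in light bars. The longer *Sufu* entry holds 68.7% in control 1 and 11.6% in mutant 2, and the longer *Rab23* entry is above 93% in both controls and below 25% in both mutants.

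The wider pathway list holds 69 genes, 60 of them besides the 9 described so far, and 53 of those 60 passed the filter. The ligands were close to the floor of these sorted cells. *Shh*, the epithelial ligand, gave 0.0414 and 0.119 FPKM in control embryos and 0.261 and 0.126 in mutant embryos. *Ihh* was at most 0.0263 FPKM and *Dhh* at most 0.03 in any embryo. *Disp1*, which releases the ligand from producing cells, was at 5.77 and 5.75 FPKM against 5.61 and 5.38.

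*Lrp2*, an endocytic co-receptor, was at most 0.0244 FPKM in any embryo. *Gli2*, the main activator of the pathway, was at 18.5 and 16.5 FPKM against 15.0 and 15.7, and its groups did not overlap (log2 fold change -0.19, limma adjusted p = 0.47). *Gli3*, the main repressor, was at 21.6 and 21.4 FPKM against 21.4 and 22.9, with a log2 fold change of 0.04.

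Counts by role are set beside the shares of all genes, 9.89% above and 35.8% below as deposited and 20.9% and 21.6% after rescaling. The lists were chosen with earlier results of these data known, so these counts are a description. The receptors and co-receptors had 4 of 9 tested genes with both mutants above both controls and 3 with both below, and 5 and 3 after rescaling. The transducers and inhibitors had 2 and 4 of 20, but 8 and 2 after rescaling, so that their balance depends on the scale. The genes for ligands and their release had 0 and 2 of 4, and 0 and 0 after rescaling. The Gli effectors had 0 and 1 of 3, and 1 and 1 after rescaling, and the target genes had 6 and 3 of 15 on both scales. The 3 target genes below include *Foxf2*, the mutated gene, whose fall follows from the genotype. Of 15 cilium genes, which build the organelle where *Smo* acts, 0 were above and 8 below, and 0 and 4 after rescaling, the latter close to the share of all genes. Their median log2 fold change was -0.15 as deposited and -0.07 after rescaling, beside -0.08 and 0.00 for all genes tested. Of all these groups only the target genes held a gene past 1.5-fold against both controls. The only gene called by limma was *Foxf2* itself.

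Of the 15 target genes tested, 4 passed 1.5-fold against both controls, where 1.4% of all genes did. They were *Foxf2* itself, and *Foxc2*, *Ccnd1* and *Foxd1*, which were higher in the mutants. The list was chosen with earlier results of these data known, so this count cannot show an excess over all genes. Only *Foxf2* was called by limma, and as the mutated gene it gives no evidence on the other targets. *Foxd1*, a forkhead factor of facial mesenchyme, reached 15.9 and 21.0 FPKM in controls 1 and 2 and 30.2 and 33.7 in mutants 1 and 2 (log2 fold change 0.80, SE 0.139, adjusted p = 0.13). *Ccnd1*, which encodes the G1 cyclin D1, measured 23.8 and 32.8 FPKM in control cells and 46.7 and 54.9 in mutant cells (log2 fold change 0.86, SE 0.157, adjusted p = 0.151). *Foxc2*, a forkhead factor with a lower level, was at 0.98 and 1.29 FPKM against 2.23 and 3.05 (log2 fold change 1.14, SE 0.229, adjusted p = 0.177).

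In all 3 genes control 2, with its *Foxf2* null allele, lay between control 1 and the mutants. The genes were picked as higher in the mutants, so control 2 could only lie there or lowest. How often other such genes have this order was not examined. Limma called none of them in the reported fit, nor without control 1 or without either mutant. *Ccnd1* (adjusted p = 0.0454) and *Foxd1* (adjusted p = 0.0456) crossed the threshold without control 2, a fit that leaves 1 control, takes its spread from the 2 mutants and assumes that the lone control varies like them. Both also crossed it in a fit on the count of null alleles (adjusted p = 0.0434 for each), in which *Foxf2* itself did not (adjusted p = 0.0667). Without mutant 2, *Foxd1* and *Ccnd1* no longer passed 1.5-fold over control 2, with *Foxd1* at 1.43-fold and *Ccnd1* at 1.42-fold, while *Foxc2* stood at 1.67-fold. The erythroid sums were likewise lowest in control 1, at 172 FPKM, and their part in these results was not tested. *Foxf1a*, a forkhead target of the pathway, was at 77.7 and 98.5 FPKM against 77.4 and 91.6, a pattern of within-group gaps like that of *Gli1* and with a log2 fold change of -0.06.

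**Figure D4:**
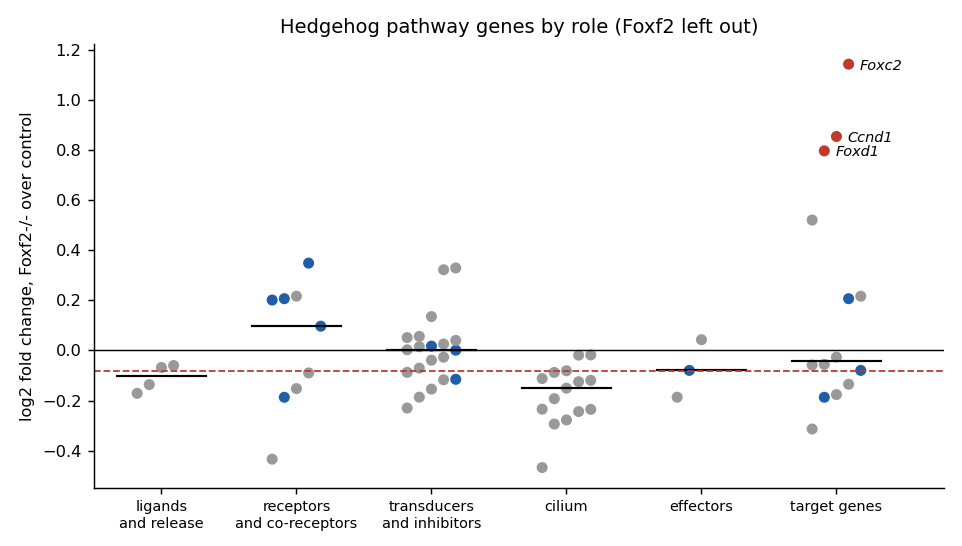
Log2 fold change, *Foxf2*-/- over control, of the tested Hedgehog pathway genes by role, with black lines at each median and the dashed line at the median of all genes tested. The 9 genes described in full are blue, and the genes past 1.5-fold against both controls are red; *Foxf2*, at -5.03, is left out.

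For each readout gene the most similar profiles over the 4 embryos were listed among genes with a mean of at least 10 FPKM, as a description, since 4 points give many close matches. The profile of *Ptch1* was matched best by *Rnps1*, *Npm1*, *Exosc2*, *Utp6* and *Eapp*, with r on log2 FPKM between 0.9996 and 0.9999, and 457 of 4245 genes reached an r of 0.95. That of *Gli1* was matched best by *Cnot3*, *Zfp467*, *Rpl21*, *Rpl36al* and *Med31*, with 115 genes at that level. That of *Hhip* was matched best by *1110001J03Rik*, *Fgf18*, *Notch2*, *1810009A15Rik* and *Daam2*, with 59 genes of 4246. *Hhip* thus had the rarest profile of the 3 and *Ptch1* the most common on the deposited scale. On that scale 35.8% of all genes had both mutants below both controls and 9.89% had both above. The ranking was not repeated after rescaling. Across the 9 genes mutant 2 was above mutant 1 in 9 cases, as it was for 67.5% of all genes tested, and control 2 was below control 1 in 8, as it was for 62.7%.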

How the data were processed

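RNA was sequenced from sorted RFP+ palatal cells of 4 embryos. Per the labels and the study's methods, Nextera libraries were sequenced on an Illumina HiSeq and reads were aligned to mm9 (Bowtie 0.12.7 in the submitters' processing notes). The authors deposited FPKM and coverage for 28107 RefSeq entries per embryo; coverage is a fixed multiple of FPKM, and only relative depth was taken from it. The tables are labelled as Cufflinks output, whereas the methods describe RPKM values from Strand NGS; the version and options behind the FPKM values are not given in the sources used here. Whole reads could not be recovered, so no count model was used.

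Entries under 200 bases and 10 symbols with a failed estimate were left out, and entries of a symbol were summed. Genes with a mean of at least 1 FPKM (11154) were fitted as log2(FPKM + 0.1) with limma 3.58.1 (R 4.3.3) with a variance trend, 2 Foxf2-/- against 2 controls, with Benjamini-Hochberg adjustment. Fold changes are on that scale, which understates changes of low genes. The limma fit was tested on simulated data that held no shift of scale between the groups and no difference between the controls. The members and lists were chosen with earlier results of these data known. Named besides the 9 genes are Shh, Ihh, Dhh, Gli2, Gli3, Lrp2, Disp1, any pathway gene past a threshold, and Foxf2, Osr2 and Foxf1a as checks; 1 further gene of that rule is not reported here. The 1.5-fold limit and control pair follow the study. Replicates are separate embryos. Shares of entries were examined after their values were seen.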

Additional observations from a re-analysis of the deposited data

How the results depend on the processing

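None of the 9 genes was called by limma in any of 14 alternatives, and Ptch1, Hhip, Cdon and Boc kept their direction in all of them. Directions of genes near 0 turned. Rescaling by median ratios moved Gli1 to 0.00059 (log2). With Foxf2 null alleles as a linear term Smo was at -0.0099, Gli1 at 0.046 and Sufu at -0.048. Leaving out 1 embryo at a time gave 0.095 to 0.31 for Cdon, -0.069 to 0.26 for Gas1, -0.077 to 0.11 for Smo, -0.29 to 0.13 for Gli1, -0.066 to 0.068 for Sufu and -0.24 to 0.012 for Kif7. Taking the highest entry per symbol, which counts 1 of the Sufu entries, gave Sufu 0.46. The 7 genes called by limma became 13 with a pseudocount of 1, 12 after upper quartile rescaling, 1 with the highest entry per symbol, 27 with short entries, 20 with a mean per genotype, 15 with null alleles as a linear term, and 0 both without a filter and without a variance trend (1452 genes had an unadjusted p under 0.05 in the reported fit); leaving out an embryo gave 7 (without control 1) to 38 (without control 2). Foxf2 was the pathway gene called, and 0 were called without a filter and without the trend, 2 with the linear term (Ccnd1 and Foxd1, not Foxf2) and 1 to 3 with an embryo left out. The 156 genes past 1.5-fold became 67 with a pseudocount of 1, 291 with short entries, 639 without a filter, 49 with at least 5 FPKM in an embryo, 36 at 2-fold and 309 against the mean of the controls, and 213 to 240 with a mutant left out; 80 were higher and 76 lower, but 92 and 51 after rescaling. The 4 pathway genes became 1 at 2-fold and 2 to 4 with a mutant left out. The causes were not tested. No paired analysis was possible because the replicate numbers of the groups pair no embryos. Depth in reads is unknown, and 2 embryos a group cannot give a permutation p under 0.333.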
